A study of Mus musculus with 8 samples.

Results

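The genes described here are 10 genes of sphingolipid synthesis and breakdown, Sptlc1, Sptlc2, Kdsr, Cers2, Cers5, Cers6, Degs1, Sgms1, Ugcg and Sgpl1, taken by symbol from a table of 15867 genes, in which all 10 had a row. The table comes from poly(A)-selected RNA-seq of macrophages selected for the surface protein F4/80 from adipose tissue of mice fed a high-fat diet for 20 weeks. The KO group is Mirc11fl/fl Mirc22fl/fl Lyz2Cre/Cre (4 libraries) and the control group is Mirc11fl/fl Mirc22fl/fl Lyz2+/+ (4 libraries). Both groups carry loxP-flanked Mirc11 and Mirc22, 2 gene clusters that encode the microRNA families miR-23, miR-27 and miR-24. In the KO group Cre sits in both Lyz2 alleles, is made in myeloid cells and deletes the clusters there. No group carried Cre with intact clusters, so the loss of the clusters, Cre and the loss of Lyz2 cannot be told apart. The labels call the samples biological replicates without saying whether each is 1 animal, so the p-values take in no more than the spread among these libraries, which may be technical. The labels give neither age nor strain.

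Sphingolipids are built on a long-chain base made in the endoplasmic reticulum. Serine palmitoyltransferase joins serine and palmitoyl-CoA, a reductase and a ceramide synthase turn the product into dihydroceramide, and a desaturase turns that into ceramide, from which sphingomyelin and glycosphingolipids are made. Breakdown runs back to sphingosine, whose phosphate is cleaved by a lyase in the only known exit from the pathway. Macrophages of obese adipose tissue take up much lipid, and palmitate, which such tissue releases, feeds the first step.

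Recovered read totals ran from 31789395 to 41495226 in KO libraries and from 32667230 to 46621080 in control libraries, and a normalized count is reads divided by 1 factor per library. Each difference is taken on the log2(normalized count + 1) scale, KO minus control, was fitted with limma and called at a Benjamini-Hochberg adjusted p under 0.05 over 15862 genes. Lyz2 ranged from 174 to 273 normalized counts in KO and from 156727 to 204853 in control libraries (n = 4 each). Each library thus matched its label for the Lyz2 alleles, while the loss of the clusters was not checked. Of all genes, 573 were called (3.61%), 196 higher and 377 lower in KO; with each library scaled to the same total 245 were higher and 244 lower. Of 17 macrophage markers other than Lyz2, 0 rose, 6 fell and 11 did not pass (median difference -0.42), and their summed normalized counts were 519265 to 637483 in KO and 662563 to 754549 in control libraries. Lpl, the most abundant of them, averaged 144614 in KO and 151454 in control, where the sums averaged 569860 and 695915. The list also holds genes of lipid handling, so its sum is not a measure of macrophage number alone. Endothelial, mural and fibroblast markers had positive medians without a call in limma. At an unadjusted p under 0.05, 9 of 12 endothelial and mural and 5 of 10 fibroblast markers were higher, against 10.8% of all genes. Sums of 12 endothelial and mural markers were 138006 to 190480 in KO and 85287 to 147869 in control (median difference 0.51), and of 10 fibroblast markers 144694 to 220194 in KO and 105961 to 177250 in control (median 0.38). Sums did not overlap for 6 dendritic cell markers (1925 to 2157 in KO and 959 to 1582 in control, median 0.50). Most of that sum is 1 gene: Zbtb46 averaged 1386 in KO and 899 in control, where the sums averaged 2014 and 1364. Taken singly, 1 of these 6 markers had KO above control without overlap, against 5.52% of all genes. Medians were also positive for markers of T and NK cells (0.70), B cells (0.51), mesothelial cells (0.43), adipocytes (0.29) and neutrophils (0.21), with 0 called in limma. At the same unadjusted threshold, 3 of 8 T and NK cell, 3 of 8 adipocyte, 2 of 5 mesothelial and 1 of 6 dendritic cell markers were higher. For B cells it was 0 of 5 and for neutrophils 0 of 3. The part of this cell mixture in the results below was not tested. In bulk RNA fewer cells of a type and less RNA per cell cannot be told apart.

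The microRNAs deleted in the KO group pair with messenger RNAs mainly through their seed, bases 2 to 8, shown in capitals because the seed fixes which sites are searched for below. The mature sequences are from RefSeq (GRCm38.p6), and miR-27a and miR-27b share their seed. The mature miR-23b-3p is named only.
mmu-miR-23a-3p: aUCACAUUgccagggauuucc
mmu-miR-27a-3p: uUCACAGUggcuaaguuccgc
mmu-miR-27b-3p: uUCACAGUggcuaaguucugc
mmu-miR-24-3p: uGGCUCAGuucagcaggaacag
The 7-base reverse complements of the seeds (AATGTGA for miR-23, ACTGTGA for miR-27 and CTGAGCC for miR-24) were searched, on the transcript strand, in the 3' untranslated region, taking for each gene the longest that is annotated (GENCODE M21, mm10, the build of all positions given here). A match is a description, not a site shown to be used.

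Sptlc2 held 4 matches in a region of 4843 bases, with at least 1 for each microRNA family, and was alone among the 10 genes in that. In capitals below are the matched bases, with 11 bases on each side.
Sptlc2, miR-24, chr12:87309826-87309854, minus strand: gtgtggcctttCTGAGCCaattccaggaa
Sptlc2, miR-24, chr12:87307235-87307263, minus strand: gagatctgcctCTGAGCCtggactgacat
Sptlc2, miR-23, chr12:87305281-87305309, minus strand: tatcatctgggAATGTGAgatttttaatt
Sptlc2, miR-27, chr12:87305173-87305201, minus strand: tatattggatgACTGTGAagctatacata
Of the 14798 measured genes with such a region, 16.8% held a match for miR-23, 17.8% for miR-27, 19.2% for miR-24 and 1.66% for all 3. Long regions hold more: among 956 genes with 3874 to 5812 bases, within 20% of the length in Sptlc2, 6.59% held all 3. Outside the 10 genes, S1pr2, a receptor of sphingosine 1-phosphate, held 1 match for each family in a region of 5111 bases. Its difference was negative and not called (-0.28, adjusted p = 0.0623, limma). Cers5 and Sgpl1, whose KO and control libraries did not overlap either, held 1 match each, shown for comparison with those of Sptlc2.
Cers5, miR-24, chr15:99735982-99736010, minus strand: tctggtcacttCTGAGCCcacctcaagtc
Sgpl1, miR-24, chr10:61100071-61100099, minus strand: gtagatcactcCTGAGCCctctcctgggc
Kdsr and Cers6 held 1 match each for miR-23, Sgms1 held 1 for miR-27 and Ugcg held 1 for miR-24. In Sptlc1, Cers2 and Degs1 these letters were not found in the region searched. In all, 7 of the 10 genes held at least 1 match, against 41.1% of measured genes, and the median region was 1922 bases in the 10 genes and 1182 bases in all.

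**Figure D1:**
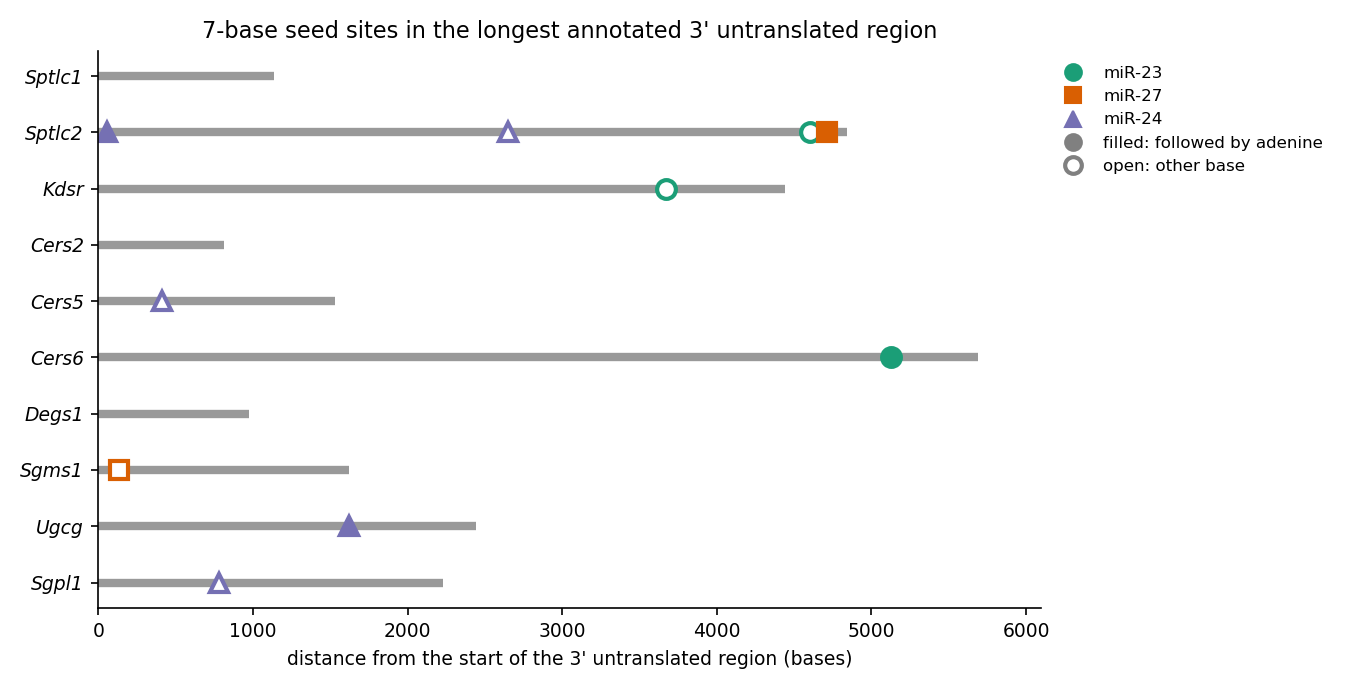
Position of the 7-base seed matches (points, coloured by microRNA family; filled where the next base is adenine) along the longest annotated 3' untranslated region (grey bars, in bases from its start) of the 10 genes. Sptlc2 has 4 matches, 2 of them for miR-24, and no other gene has more than 1.

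Of the 10 genes, 1 rose, 1 fell and 8 did not pass, 2 of 10 called against 3.61% of all genes (1.24% higher and 2.38% lower). Sptlc2 rose 1.22-fold, Cers5 fell to 0.850 of the control level, and Sgpl1 lay just outside the threshold. At an unadjusted p under 0.05 there were 3 (limma), against 21.2% of all genes. On recovered reads edgeR called 2 of the 10, against 3.51% of all genes, and DESeq2 called 3, against 9.82%. The median difference over the 10 genes was -0.13, beside 0.00 over all genes tested. KO and control libraries did not overlap for 3 of the 10, against 13.7% of all genes.

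Serine palmitoyltransferase starts the pathway and sets its rate. Sptlc2, the subunit that binds the cofactor of the reaction (chromosome 12, 87305058 to 87388355, minus strand), measured 4906, 5056, 5091 and 5627 normalized counts in KO replicates 1 to 4, against 4161, 4292, 4365 and 4061 in control replicates 1 to 4. All 4 KO libraries lay above all 4 controls. It averaged 5170.1 ± 315 in KO and 4220 ± 135 in control libraries, a log2 difference of 0.29 (SE 0.05, 95% interval 0.17 to 0.42, adjusted p = 0.0263, limma), or 1.22-fold. The difference was 0.25 to 0.32 in the 8 fits that left out 1 library, but the call was lost without KO replicate 2, 3 or 4 or control replicate 1, 3 or 4 (adjusted p from 0.0541 to 0.0660). The authors' deposited table gives a log2 fold change of control over KO of -0.29 with adjusted p = 9.06e-05. Its sign runs the other way from the differences here.

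Sptlc1, the partner subunit without which Sptlc2 has no activity (chromosome 13, 53332748 to 53377397), was not called. It measured 1765, 1834, 1909 and 1992 in KO, against 2080.0, 1954, 1946 and 2005 in control replicates 1 to 4, and the groups overlapped through KO replicate 4. Its difference was -0.09 (SE 0.05, 95% interval -0.21 to 0.03, adjusted p = 0.363). The interval for Sptlc1 spans 0. The ratio of the subunits within a library, which the scaling of libraries cannot change and which was not tested, differed between the groups: Sptlc2 over Sptlc1 was 2.67 to 2.82 in KO and 2.00 to 2.24 in control libraries. The mean ratio was 2.76 ± 0.0664 in KO and 2.12 ± 0.121 in control. Kdsr, the reductase of the second step (chromosome 1, 106720459 to 106759727), averaged 792 ± 52.7 in KO and 723 ± 33.8 in control libraries, a difference of 0.13 (95% interval -0.02 to 0.28, adjusted p = 0.314). Kdsr was above every control in 3 of 4 KO libraries (765 to 859.9), while KO replicate 1, at 738, lay within the control range of 693 to 756.

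**Figure D2:**
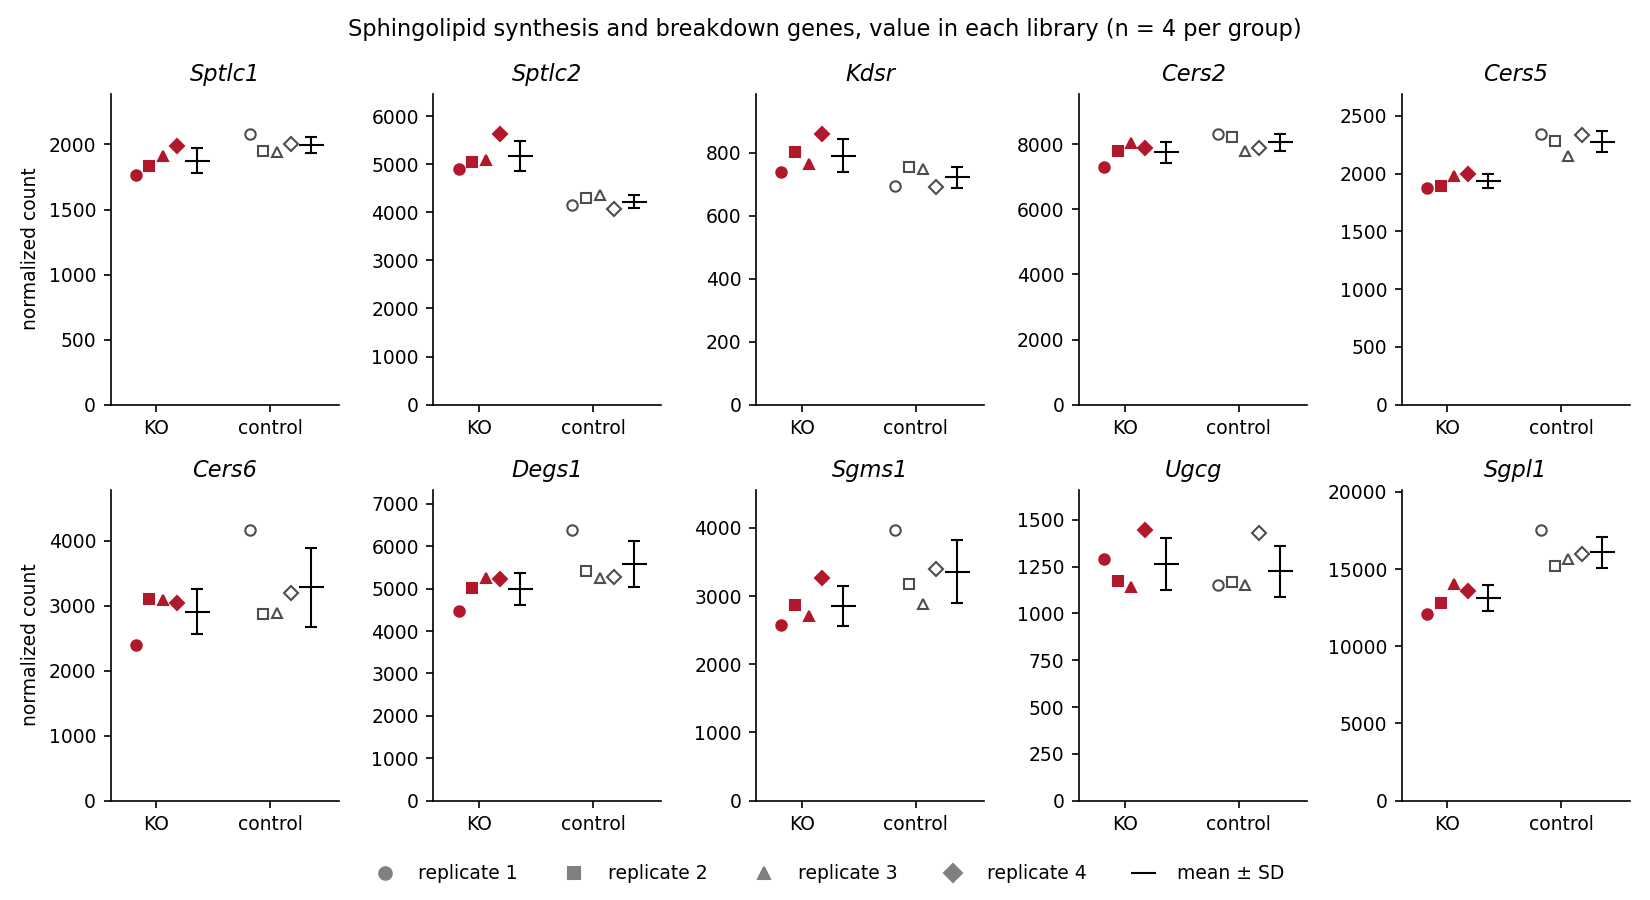
Normalized count (vertical axis, from 0) of each of the 10 genes in 4 KO and 4 control libraries, with mean ± SD beside the points and a marker shape for each replicate number. Sptlc2 lies higher in all 4 KO libraries, and Cers5 and Sgpl1 lie lower in all 4, while the other 7 genes overlap.

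Ceramide synthases attach the fatty acyl chain, and differ in the chain they prefer: palmitoyl for Cers5 and Cers6, very long chains for Cers2. Cers5 (chromosome 15, 99734881 to 99772885) measured 1873, 1896, 1980.1 and 1996 in KO, against 2343, 2286, 2149 and 2333 in control replicates 1 to 4. The groups did not overlap. Cers5 averaged 1936 ± 61.0 in KO and 2278 ± 89.1 in control libraries, a difference of -0.23 (SE 0.05, 95% interval -0.35 to -0.12, adjusted p = 0.0380), or 0.850-fold. The call was lost in each of the 8 fits that left out 1 library (adjusted p from 0.0618 to 0.106; differences from -0.26 to -0.22) and with each library scaled to the same total (-0.18, adjusted p = 0.0787) or quantile normalization (adjusted p = 0.0517).

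Cers6 (chromosome 2, 68861441 to 69114282) varied more between libraries than any other of the 10 genes, with a coefficient of variation of 11.9% in KO and 18.5% in control. It measured 2388, 3104, 3082 and 3042 in KO, against 4163, 2866, 2893 and 3200 in control replicates 1 to 4. Replicate 1 is thus the lowest of the KO libraries and the highest of the controls, and the other 6 libraries lie within 2866 to 3200. The difference was -0.17 (95% interval -0.47 to 0.13, adjusted p = 0.514), and without both libraries of that number it was 0.04.

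Cers2 (chromosome 3, 95314791 to 95323599) averaged 7747 ± 315 in KO and 8052 ± 249 in control libraries (difference -0.06, 95% interval -0.17 to 0.06, adjusted p = 0.557), a sign that turned with each library scaled to the same total or quantile normalization. Exons of genes on the opposite strand overlap 5.96% of its exon bases, and whether reads were counted by strand was not stated. Within a library the ratio of Cers5 to Cers2 was 0.243 to 0.257 in KO and 0.276 to 0.296 in control, with no overlap. Ratios of Cers6 to Cers2 overlapped, from 0.327 to 0.398 in KO and from 0.349 to 0.501 in control libraries. Degs1, the desaturase that completes ceramide (chromosome 1, 182275772 to 182282804), measured 4466, 5009, 5258 and 5237 in KO, against 6383, 5424, 5250.2 and 5265 in control replicates 1 to 4. Its difference of -0.16 (95% interval -0.34 to 0.02) did not pass (adjusted p = 0.295).

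**Figure D3:**
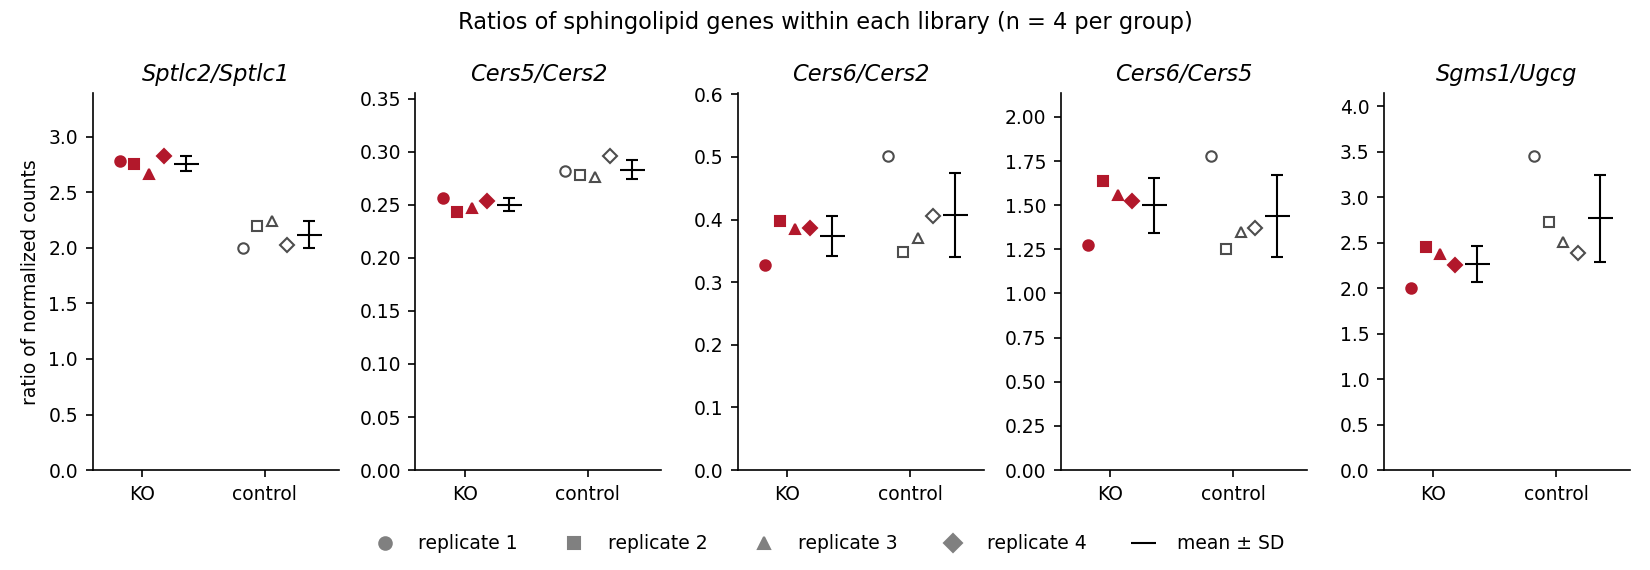
Ratio of normalized counts of gene pairs within each library (vertical axis, from 0), for 4 KO and 4 control libraries, with mean ± SD. The ratio of Sptlc2 to Sptlc1 is higher and that of Cers5 to Cers2 lower in all 4 KO libraries, while the other 3 ratios overlap between the groups.

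Sgms1 and Ugcg, which turn ceramide into sphingomyelin and glucosylceramide, were not called. Sgms1, a Golgi synthase that makes sphingomyelin (chromosome 19, 32122727 to 32389714), measured 2580.2, 2873, 2703 and 3263 in KO, against 3969, 3179, 2889 and 3404 in control replicates 1 to 4. The groups overlapped through KO replicate 4 and control replicates 2 and 3. Its difference was -0.23 (95% interval -0.47 to 0.01, adjusted p = 0.251), about as large as that of Cers5 but with a wider spread. Ugcg, which adds glucose to ceramide and so opens the glycosphingolipid branch (chromosome 4, 59189257 to 59222833), measured 1293, 1174, 1140.4 and 1445 in KO, against 1151, 1167, 1154 and 1429 in control replicates 1 to 4. Ugcg ranged about as widely in KO as in control libraries (difference 0.04, 95% interval -0.18 to 0.27, adjusted p = 0.843).

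Sgpl1, the lyase that cleaves sphingosine 1-phosphate (chromosome 10, 61098642 to 61147703) measured 12118, 12829, 14048 and 13576 in KO, against 17525, 15213, 15680.3 and 15969 in control replicates 1 to 4, and all 4 KO libraries lay below all 4 controls. It averaged 13143 ± 848 in KO and 16097 ± 1002 in control libraries, a difference of -0.29 (SE 0.07, 95% interval -0.45 to -0.14), with adjusted p = 0.0508. It passed when only genes with a mean of at least 50 were tested (adjusted p = 0.0437), with array weights (0.0485) and in DESeq2 on recovered reads (0.00126), and did not pass in the other 17 of 20 alternatives (adjusted p up to 0.266), edgeR (0.0575) and all 8 fits without 1 library (0.0603 to 0.132) among them. In the authors' deposited table its log2 fold change of control over KO is 0.29 with adjusted p = 0.00126, and it gives Cers5 0.24 with adjusted p = 7.94e-04. That table calls 10.9% of its genes, more than the fit used here. It and DESeq2 on recovered reads each called 1557 genes and rest on the same reads, so they are not separate results.

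Libraries differed in ways that ran across the 10 genes. KO replicate 1 was the lowest of the 8 libraries for 7 of the 10, and over all genes tested it was the lowest for 16.7%. Control replicate 1 was the highest for 7 of the 10, and for 20.8% of all genes. The 7 genes were the same in both cases: Sptlc1, Cers2, Cers5, Cers6, Degs1, Sgms1 and Sgpl1. These were also the most deeply sequenced library of each group. Without both, the difference was 0.31 for Sptlc2 (adjusted p = 0.0645), -0.20 for Cers5 (0.121), -0.21 for Sgpl1 (0.131), -0.04 for Degs1, -0.10 for Sgms1, -0.04 for Sptlc1, -0.01 for Cers2, 0.04 for Cers6, 0.14 for Kdsr and 0.0026 for Ugcg. Degs1, Sgms1, Sptlc1, Cers2, Cers6 and Ugcg thus moved by over 1.5 times, and none of the 10 genes was called in limma.

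**Figure D4:**
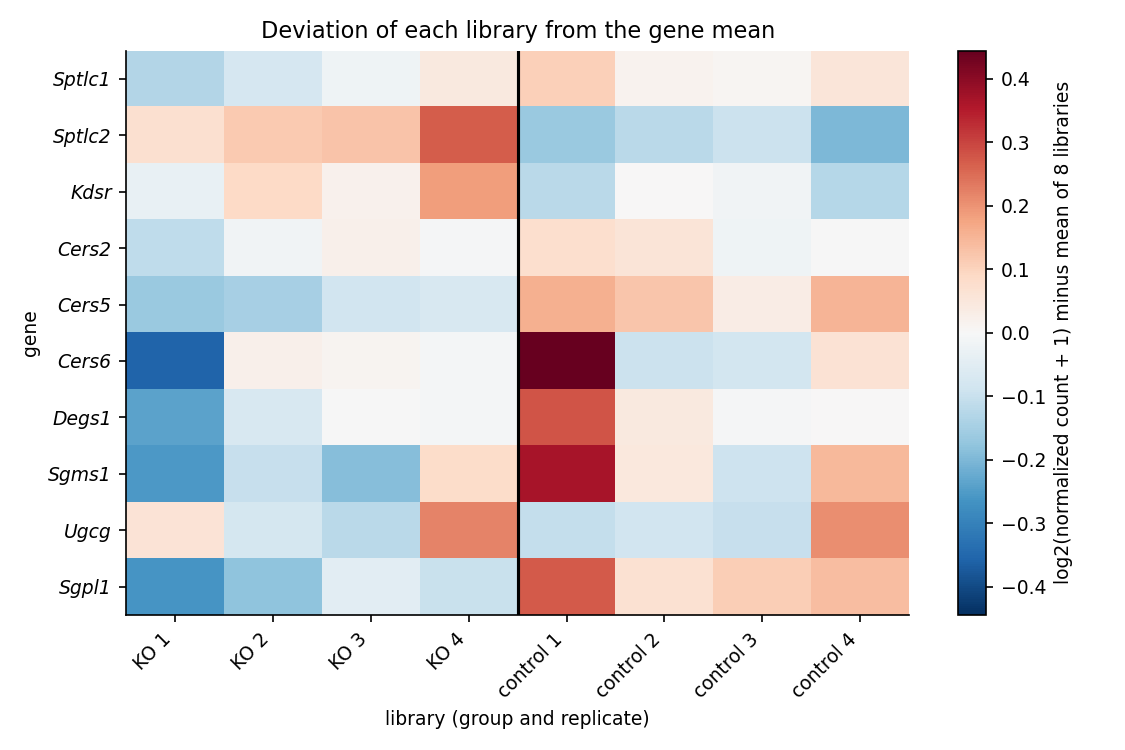
Deviation of log2(normalized count + 1) from the mean of the 8 libraries, by gene (rows) and library (columns, KO left of the line and control right of it), in blue below and red above the mean. KO replicate 1 is the lowest and control replicate 1 the highest library for 7 of the 10 genes, whereas Sptlc2 is above its mean in all 4 KO libraries.

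Levels can be compared between genes only per length, here normalized counts per kb of the longest annotated transcript. On that scale Cers2 (3496 ± 142 in KO and 3634 ± 112 in control) and Sgpl1 (3014 ± 194 in KO and 3691 ± 230 in control) stood highest, and Cers2 and Sgpl1 did not differ beyond their spread in control libraries. Degs1 followed with 2438 ± 180 in KO and 2725 ± 264 in control. Sptlc2, Sptlc1, Sgms1 and Cers5 formed a middle group in KO libraries, from 698 to 771 per kb, and the mean ± SD ranges of neighbours in it overlapped. In control libraries the order within that group changed: Sptlc2 was its lowest with 629 ± 20.2, below Sptlc1 with 766 ± 23.7. Cers6 (413 ± 49.1 in KO and 466 ± 86.3 in control) and Ugcg (315 ± 34.3 in KO and 305 ± 33.9 in control) were lower, and Kdsr was the lowest (143 ± 9.56 in KO and 131 ± 6.12 in control). Over all libraries Cers2 stood at the 96.2 percentile of 15640 genes with a length and Kdsr at the 39.8 percentile.

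Among 54 other sphingolipid genes 0 rose, 6 fell and 48 did not pass, against 2.38% of all genes called lower, and the median difference was -0.06. Groups did not overlap for 14 with KO below (8.21% of all genes) and for 5 with KO above (5.52% of all genes). At an unadjusted p under 0.05 in limma 5 of the 54 were higher (10.8% of all genes) and 17 lower (10.4% of all genes). DESeq2 on recovered reads called 5 of them higher (4.2% of all genes) and 12 lower (5.62% of all genes). Of 7 other de novo synthesis genes and regulators, 0 were called in limma, 1 was lower at an unadjusted p under 0.05 and the median was 0.02. This list holds genes of later steps (Cers1, Cers4 and Degs2) beside those of the first step's accessory proteins. Sptssa, the small subunit that activates serine palmitoyltransferase, averaged 2647 ± 224 in KO and 2621 ± 359 in control libraries. Ormdl2, of the family that inhibits that enzyme, averaged 667 ± 30.5 in KO and 794 ± 119 in control (difference -0.24, adjusted p = 0.215), and the difference was -0.14 without control replicate 1.

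Sphingomyelin and ceramide transfer genes included 2 that fell, with 8 of 10 not passing, against 2.38% of all genes called lower. Cerk, the kinase that phosphorylates ceramide, measured 8362, 9086, 9841 and 10074 in KO, against 13859, 11584, 11532 and 11458 in control replicates 1 to 4 (difference -0.37, SE 0.08, adjusted p = 0.0468). Every KO library lay below every control. Smpdl3a, a phosphodiesterase related to acid sphingomyelinase and known for cleaving nucleotides, averaged 4714 ± 203 in KO and 5632 ± 292 in control (difference -0.26, adjusted p = 0.0403). Both calls were lost in each of the 8 fits that left out 1 library (adjusted p from 0.0670 to 0.116 for Cerk and 0.0566 to 0.109 for Smpdl3a) and also with each library scaled to the same total (0.0704 for Cerk and 0.0618 for Smpdl3a) or quantile normalization (0.0956 for Cerk and 0.0764 for Smpdl3a). Cerk missed the threshold in edgeR too (0.0521).

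The branch from glucosylceramide onward gave the firmest call. B4galt5, a lactosylceramide synthase that acts right after Ugcg, measured 3288, 3125, 3358 and 3324 in KO, against 5051, 4329, 4523 and 4427 in control replicates 1 to 4. The KO libraries lay close together and well below the controls (difference -0.48, SE 0.06, adjusted p = 0.00549, 0.715-fold), and the call held in all 8 fits that left out 1 library (adjusted p at most 0.0238). Gltp, which carries glycolipids between membranes, averaged 10357 ± 468 in KO and 12504 ± 526 in control (difference -0.27, adjusted p = 0.0339), a call that was kept only without control replicate 2 (0.0455) and otherwise had adjusted p from 0.0654 to 0.0871. The other 8 of these 10 genes did not pass, where 2.38% of all genes were called lower.

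Of 11 glycosphingolipid breakdown genes, most of them lysosomal, 2 fell, 0 rose and 9 did not pass. Of all genes, 2.38% were called lower and 1.24% higher. Galc, galactosylceramidase, measured 3637, 4767, 4318 and 5298 in KO, against 7483, 6345, 6054 and 6565 in control replicates 1 to 4. The groups did not overlap. Galc averaged 4505 ± 704 in KO and 6611 ± 617 in control (difference -0.56, SE 0.11, adjusted p = 0.0349). Psap, the precursor of the saposins that assist these enzymes, averaged 453452 ± 36454 in KO and 419788 ± 36738 in control (difference 0.11, adjusted p = 0.720). The Galc call was lost in each fit that left out 1 library except the one without KO replicate 4 (otherwise adjusted p from 0.0570 to 0.0896) and with quantile normalization (0.0517). Of 16 ceramidase and sphingosine 1-phosphate genes 0 passed in limma, with 3 higher and 4 lower at an unadjusted p under 0.05, where 10.8% of all genes were higher and 10.4% lower. Asah1, acid ceramidase, averaged 8667 ± 597 in KO and 11046 ± 1176 in control (difference -0.35, adjusted p = 0.0619). The authors' DESeq2 comparison, which calls 10.9% of its genes, gives Asah1 adjusted p = 0.00376.

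**Figure D5:**
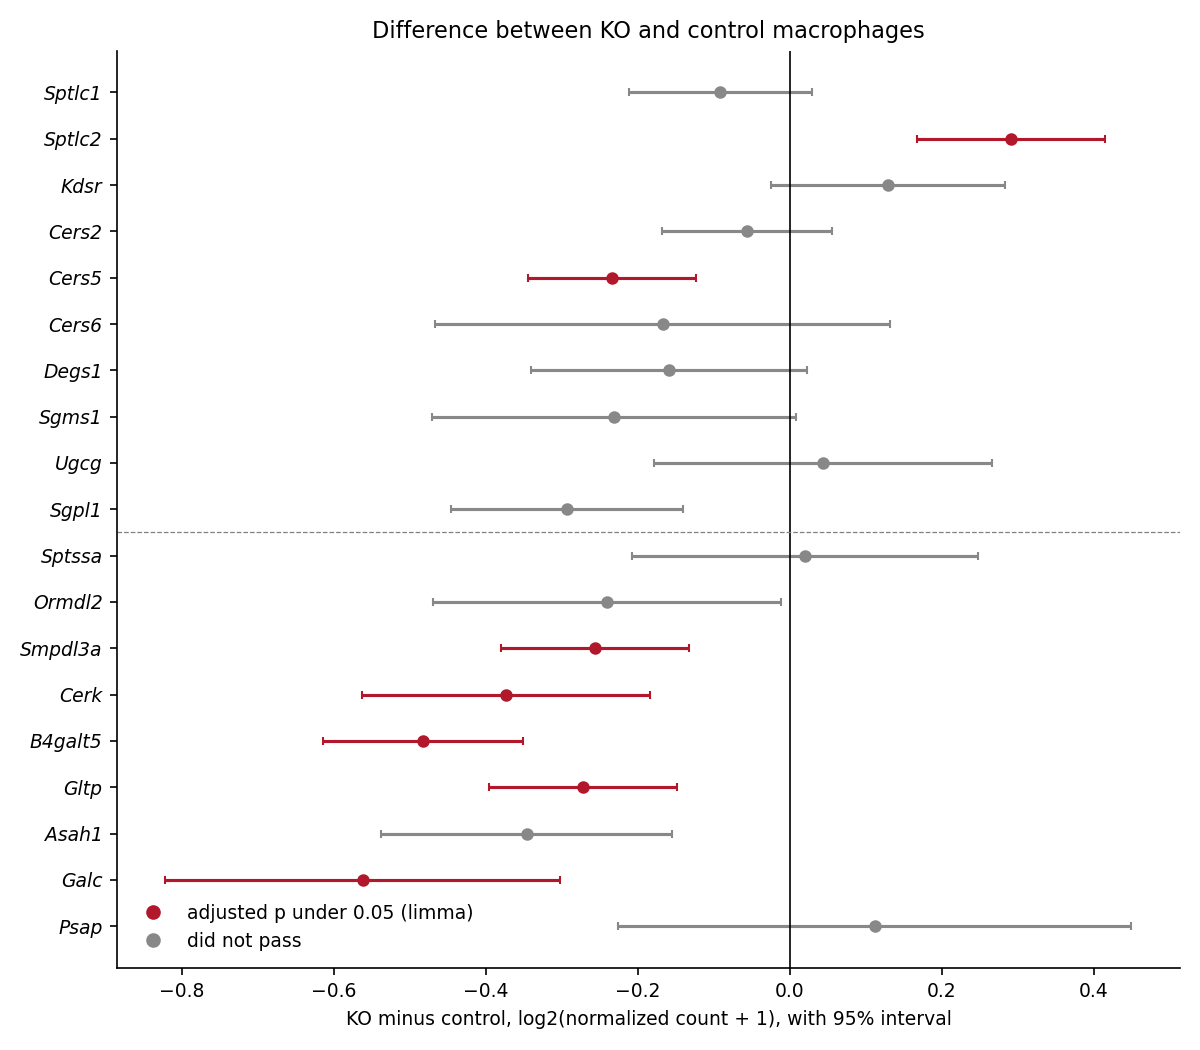
Difference of KO minus control in log2(normalized count + 1) with its 95% interval (horizontal axis) for the 10 genes (above the dashed line) and for 9 other sphingolipid genes (below it), in red where the adjusted p is under 0.05. Sptlc2 is the only red point right of 0, at 0.29, and the red points left of 0 run from -0.23 for Cers5 to -0.56 for Galc.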

How the data were processed

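The table the authors deposited holds a signal, the normalized count of each gene in each sample. FastQC, cutadapt, Salmon, DESeq2 and mm10 are named, per the submitters' processing notes, without version or role. Multiplying back by 1 factor per library gave whole reads (100% of values within 0.01 reads). The smallest value of each library is 1 read and none is 0; whether 1 was added to each count is not stated. In control replicate 4 that factor lies near 1, so low values alone cannot show it. The authors also deposited a DESeq2 comparison with, per the file headers, a log2 fold change of control over KO, a standard error, a score (the test's statistic) and p-values.

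The main test was limma 3.58.1 (R 4.3.3, eBayes with trend, two-sided) on log2(value + 1) for genes with a mean of at least 10, with no covariate. A difference on this scale understates that of low genes. Alternatives on the recovered reads were count models (edgeR 4.0.16, quasi-likelihood; DESeq2 1.42.0). Within a group, every pair of libraries differed beyond counting noise (chi-square of 8.86 or more per gene), so all 8 were kept. Named are the 10 genes and, in each of 5 other sphingolipid lists, the genes called, the gene with the smallest p and that with the highest mean, beside Lyz2 and sums over marker lists; 1 gene called is not reported here. The 10 genes and all lists were chosen with earlier results of these data known. Of 59 genes in the 5 lists 54 had a row, Cert1 as Col4a3bp. Seed matches used GENCODE M21 regions of at least 30 bases. Of the 31-base words of the 10 genes' transcripts, at most 2.23% (Degs1) occur in other genes.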

Additional observations from a re-analysis of the deposited data

Results flagged for a closer look

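Among 40 groups of 4 libraries (20 named genes, KO and control), 5 held a library whose gap to its neighbour took up nearly the whole of the group's range (Dixon's critical value for 4 samples); chance gives this for about 1 in 20 groups. Of the 5, 4 involve replicate 1 of a group. In KO replicate 1, Cers6 was low at 2388, where the other KO libraries had 3042 to 3104, and so was Sptssa, at 2316, where the next KO library had 2715. In control replicate 1, Degs1 was high at 6383, where the next control had 5424, and Cerk was high at 13859, where the next control had 11584. Ugcg was high at 1429 in control replicate 4, where the next control had 1167. The cause was not tested.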

How the results depend on the processing

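Of the 10 genes, 2 were called; 1 (Sptlc2) was called with each library scaled to the same total and with quantile normalization, 0 to 1 in fits that left out 1 library, 0 without both replicates numbered 1 (an alternative chosen after seeing the data) and 0 with a replicate block. Over all genes 573 were called, against 1557 with DESeq2, 931 with array weights, 7 with the replicate block, 226 without both replicates numbered 1 and 163 to 502 without 1 library. Of the other sphingolipid genes 6 were called, against 3 with quantile normalization, 17 with DESeq2, 0 with the replicate block, 2 without both replicates numbered 1 and 1 to 5 without 1 library. Same-numbered KO and control libraries did not deviate together (correlations from -0.29 to -0.04). The labels do not say that the numbers pair samples, and these correlations cannot settle it. The sign of Cers2 turned with each library scaled to the same total (0.0025) and quantile normalization (0.0035), and that of Cers6 without both replicates numbered 1 (0.0446). Over the alternatives Cers6 ran from -0.226 to 0.0446, Ugcg from -0.0229 (without KO replicate 4) to 0.1198 and Sptssa from -0.0381 (without control replicate 4) to 0.173. Sptlc2 kept its sign in all 20 alternatives (0.25 to 0.35), as did Cers5 (-0.26 to -0.18) and Sgpl1 (-0.33 to -0.21). The cause was not tested. The lowest value of the 10 genes was 693 normalized counts (Kdsr), and the number of libraries limits the precision.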

Other observations

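Genes named here were chosen after their values were seen. Among receptors of sphingosine 1-phosphate, S1pr3 averaged 1566 ± 168 in KO and 1183 ± 132 in control libraries (difference 0.41, adjusted p = 0.0658) and S1pr1 8096 ± 489 in KO and 6728 ± 549 in control (0.27, adjusted p = 0.0781). S1pr2 averaged 3006 ± 215 in KO and 3638 ± 237 in control (-0.28, adjusted p = 0.0623). None of these passed in limma. The authors' DESeq2 comparison, which calls 10.9% of its genes, gives adjusted p = 0.00705 for S1pr3, 0.0115 for S1pr1 and 0.00721 for S1pr2. S1pr1 and S1pr3 are well known in endothelial cells. Endothelial and mural markers together summed to a mean of 161990.0 in KO and 116814 in control libraries. The sums overlapped (138006 to 190480 in KO and 85287 to 147869 in control). The part of endothelial cells in the S1pr1 and S1pr3 values was not tested. A4galt, which makes globotriaosylceramide, averaged 764 ± 69.8 in KO and 601 ± 38.2 in control (0.34, adjusted p = 0.0595). Gba2, a glucosylceramidase outside the lysosome, averaged 1908 ± 230 in KO and 1482 ± 145 in control (0.36, adjusted p = 0.0819). In the authors' DESeq2 comparison adjusted p was 0.00724 for A4galt and 0.0158 for Gba2. The genes picked here are mostly higher in KO and do not stand for the 54 other sphingolipid genes. Of those, DESeq2 on recovered reads called 5 higher (4.2% of all genes) and 12 lower (5.62% of all genes).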
